A study of Mus musculus with 18 samples.

Results

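The genes described here encode the receptors that read immunoglobulin G (IgG) immune complexes: the activating receptor genes Fcgr1, Fcgr3 and Fcgr4, their shared signalling chain Fcer1g, the kinase gene Syk, the inhibitory receptor gene Fcgr2b and the neonatal receptor gene Fcgrt. They were taken by symbol, and all 7 were found among the 15035 genes of each table. RNA from kidney cortex of 18 mice was sequenced, in 6 groups of 3. Control animals without disease were of the MRL/MpJ strain. The other 5 groups were MRL/lpr mice, a strain that carries the lpr defect of the death receptor Fas and develops lupus nephritis. They received vehicle, MMF (mycophenolate mofetil, an inhibitor of guanine nucleotide synthesis in lymphocytes), FK506 (tacrolimus, a calcineurin inhibitor), prednisone (a glucocorticoid) or a multi-target combination. The labels do not give its components, nor doses, ages or sexes. Animals are named by the numbers in their titles, which differ between mice within a group.

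Immune complexes deposited in the glomerulus are read by Fc gamma receptors on macrophages and other leukocytes. The activating receptors of the mouse pair with the gamma chain encoded by Fcer1g, whose tyrosine motif (ITAM) recruits the kinase Syk once it is phosphorylated. Fcgr2b encodes the inhibitory receptor, whose own motif (ITIM) recruits phosphatases that oppose this signal, and which is also made by B cells and liver endothelium. Fcgrt encodes FcRn, a relative of MHC class I that pairs with beta-2-microglobulin and returns IgG and albumin from endosomes to the cell surface. In the kidney it is known from podocytes, proximal tubule and endothelium.

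Of the 7 genes, 4 lie close together on chromosome 1 (GRCm38, GENCODE M21). Fcgr2b lies at chr1:170958617-170976547 on the minus strand, Fcgr4 at chr1:171018920-171029761 on the plus strand, Fcgr3 at chr1:171051174-171064935 on the minus strand and Fcer1g at chr1:171229572-171234365 on the minus strand. Fcgr1 is at chr3:96282909-96293969 on the minus strand, Syk at chr13:52583173-52648792 on the plus strand and Fcgrt at chr7:45092990-45103851 on the minus strand. Annotated genes overlap Fcgr2b (Gm38204), Fcgr3 (Mir6546), Fcgr4 (Gm26110) and Fcgrt (Gm45669), and with no statement that strand was used in counting, reads there cannot be told apart.

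Fcgr2b and Fcgr3 share a run of coding sequence, shown because reads that fall inside it cannot be placed in the inhibitory or the activating gene from their letters alone. The run is 129 bases long and spans the junction of exons 3 and 4 in both genes, from chr1:170966674-170968081 in Fcgr2b and chr1:171054167-171057792 in Fcgr3, both on the minus strand. Capitals mark the identical bases, and 12 flanking bases are in lower case on each side.
Fcgr2b: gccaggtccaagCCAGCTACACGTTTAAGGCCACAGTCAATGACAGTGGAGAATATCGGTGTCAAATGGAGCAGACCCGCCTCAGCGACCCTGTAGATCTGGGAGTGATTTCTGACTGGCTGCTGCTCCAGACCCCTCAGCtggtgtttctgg
Fcgr3: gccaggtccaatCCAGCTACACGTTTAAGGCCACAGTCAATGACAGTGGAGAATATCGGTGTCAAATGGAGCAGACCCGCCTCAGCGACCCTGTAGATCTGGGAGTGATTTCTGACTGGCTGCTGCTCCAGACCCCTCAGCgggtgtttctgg
Over the annotated transcripts, 166 windows of 50 bases occurred in both genes, which is 12.8% of the 1298 windows of Fcgr3 and 4.89% of the 3396 windows of Fcgr2b. No such window was shared between any other pair of the 4 receptor genes Fcgr1, Fcgr2b, Fcgr3 and Fcgr4. How the authors' counting treated reads from the shared run is not given in the sources used here, so the levels of Fcgr2b and Fcgr3 are uncertain to that extent.

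The stretches just before the RefSeq start sites of Fcgr1 and Fcgr4 are shown because these 2 activating genes held the searched motif letters in their promoter windows. RefSeq windows from 250 bases before to 50 bases after each start (GRCm38.p6) were searched on both strands for 3 motifs. These were the interferon-gamma-activated site TTCNNNGAA, the PU.1-type motif GAGGAAGT and the interferon-response core, which is GAAA, any 2 bases and GAAA. Capitals mark the matches in the 150 bases before the start, at chr3:96293970-96294119 on the minus strand and chr1:171018776-171018925 on the plus strand.
Fcgr1: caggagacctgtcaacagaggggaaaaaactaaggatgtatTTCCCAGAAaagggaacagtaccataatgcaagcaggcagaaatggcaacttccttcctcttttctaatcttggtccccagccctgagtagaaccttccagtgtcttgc
Fcgr4: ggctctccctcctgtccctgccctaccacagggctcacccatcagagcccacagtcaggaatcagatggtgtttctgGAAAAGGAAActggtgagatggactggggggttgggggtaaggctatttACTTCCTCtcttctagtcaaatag
The Fcgr1 window held TTCNNNGAA starting at position -109, a motif found in 8.30% of the 32851 windows in the table. The Fcgr4 window held the interferon-response core at -73, found in 3.44% of windows, and the reverse complement of GAGGAAGT at -24, found in 3.2%. None of the 3 was found in the windows of Fcgr3, Fcer1g, Syk, Fcgr2b or Fcgrt. These are matches of letters, and no binding was measured.

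The tables hold log2 values scaled to sequencing depth, and that scale could be turned back into reads for most genes. The recovered library totals ran from 28939845 to 41066953 reads. Before the log2 step, 1 read stood for 1 unit in the deepest library and 1.49 units in the shallowest. Proximal tubule genes, which mark kidney cortex, were at a mean log2 value of 15.98 to 16.14 in healthy mice and 14.03 to 15.66 in MRL/lpr mice. A pair of libraries carried transcripts of other tissue: vehicle mouse 17, where 7 adipocyte genes averaged 10.89 against 4.09 to 5.97 elsewhere, and FK506 mouse 12, where 7 adrenal genes averaged 11.18 against 4.94 to 6.42 elsewhere. Where a call or a direction of the 7 genes changed without both, the value without them is given. In whole tissue, fewer cells of a type and less RNA per cell cannot be told apart.

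In untreated lupus kidneys the activating genes stood far above healthy kidneys, while the inhibitory and neonatal receptor genes did not pass the test. Fcgr1, Fcgr3, Fcgr4, Fcer1g and Syk rose in vehicle-treated MRL/lpr mice, between 7.80-fold for Syk and 20.1-fold for Fcgr4. Fcgr2b was 1.51-fold higher and Fcgrt 0.918 times the healthy level, neither past the threshold. All tests are limma's moderated test over all genes with Benjamini-Hochberg adjustment at 0.05, which called 22.4% of all genes in this comparison and 15.7% as higher. The count of 5 of 7 therefore stands beside a background in which many genes changed.

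Fcgr1 encodes the high-affinity receptor, which binds monomeric IgG2a. Its log2 values were 5.19, 5.48 and 5.99 in the healthy mice and 8.96, 9.64 and 9.70 in the vehicle mice. Every vehicle mouse was above every healthy mouse, by a mean of 3.88 log2 units (SE 0.56, limma adjusted p = 0.000297). In reads, healthy mice had 35 to 56 and vehicle mice 472 to 745, and for 35 reads the exact Poisson interval (95%, counting error only) runs from 24.4 to 48.7.

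Fcgr3 encodes the low-affinity activating receptor, the main one on mouse natural killer cells. Healthy mice were at 6.67, 6.84 and 6.78, and vehicle mice at 9.82, 10.18 and 10.74. The groups did not overlap and differed by 3.48 log2 units (SE 0.40, limma adjusted p = 5.34e-05), or 11.2-fold. Fcgr4, the receptor for IgG2a and IgG2b on mouse monocytes, macrophages and neutrophils, was at 5.52, 5.86 and 6.02 in healthy mice and 9.74, 10.73 and 9.91 in vehicle mice. Its difference of 4.33 (SE 0.62, limma adjusted p = 0.000277) was the largest of the 7, and the highest of the vehicle values belonged to mouse 17. Without the libraries carrying other tissue it was 4.03 (limma adjusted p = 0.00152).

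Fcer1g, without which the activating receptors are poorly held at the surface, rose by 3.85 log2 units (SE 0.51, limma adjusted p = 0.000161). Healthy mice were at 6.23, 6.63 and 6.72, and vehicle mice at 9.86, 10.49 and 10.79. Syk, the kinase downstream, rose by 2.96 (SE 0.36, limma adjusted p = 8.59e-05), from 6.97, 7.10 and 7.25 to 9.48, 10.30 and 10.44. For both genes the lowest vehicle mouse, number 7, was still more than 2 log2 units above the highest healthy mouse.

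Fcgr2b, the inhibitory receptor gene, had healthy values of 10.07, 9.98 and 10.13 and vehicle values of 10.56, 10.45 and 10.94. The groups did not overlap, but the difference of 0.59 (95% interval -0.26 to 1.44) had a limma adjusted p of 0.298. Of all genes, 32.6% were higher in vehicle mice with no overlap, so 6 of these 7 genes doing so is read against that share. With only the 2 groups in the fit, the Fcgr2b difference passed the test (limma adjusted p = 0.0325). Its deposited value behaves as the mean of the log2 of 2 counts, and what these counts are is not given in the sources used here. Fcgr2b has 2 curated RefSeq transcripts, as do Syk, whose value behaves alike, and Fcgr3 and Fcgrt, whose values are whole reads. GENCODE transcripts with a curated RefSeq match number 2 for Fcgr2b and Syk and 1 for every other member. Whether the 2 counts are those of transcripts was not tested. The ratios to Fcgr2b below use this value.

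For Fcgrt, healthy mice were at 13.62, 13.72 and 13.68 and vehicle mice at 13.57, 13.71 and 13.37. The groups overlapped, and the difference of -0.12 had a 95% interval of -0.77 to 0.52 (limma adjusted p = 0.797). B2m, the gene of FcRn's partner beta-2-microglobulin and of all MHC class I molecules, rose by 3.28 in the same libraries (SE 0.32).

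**Figure D1:**
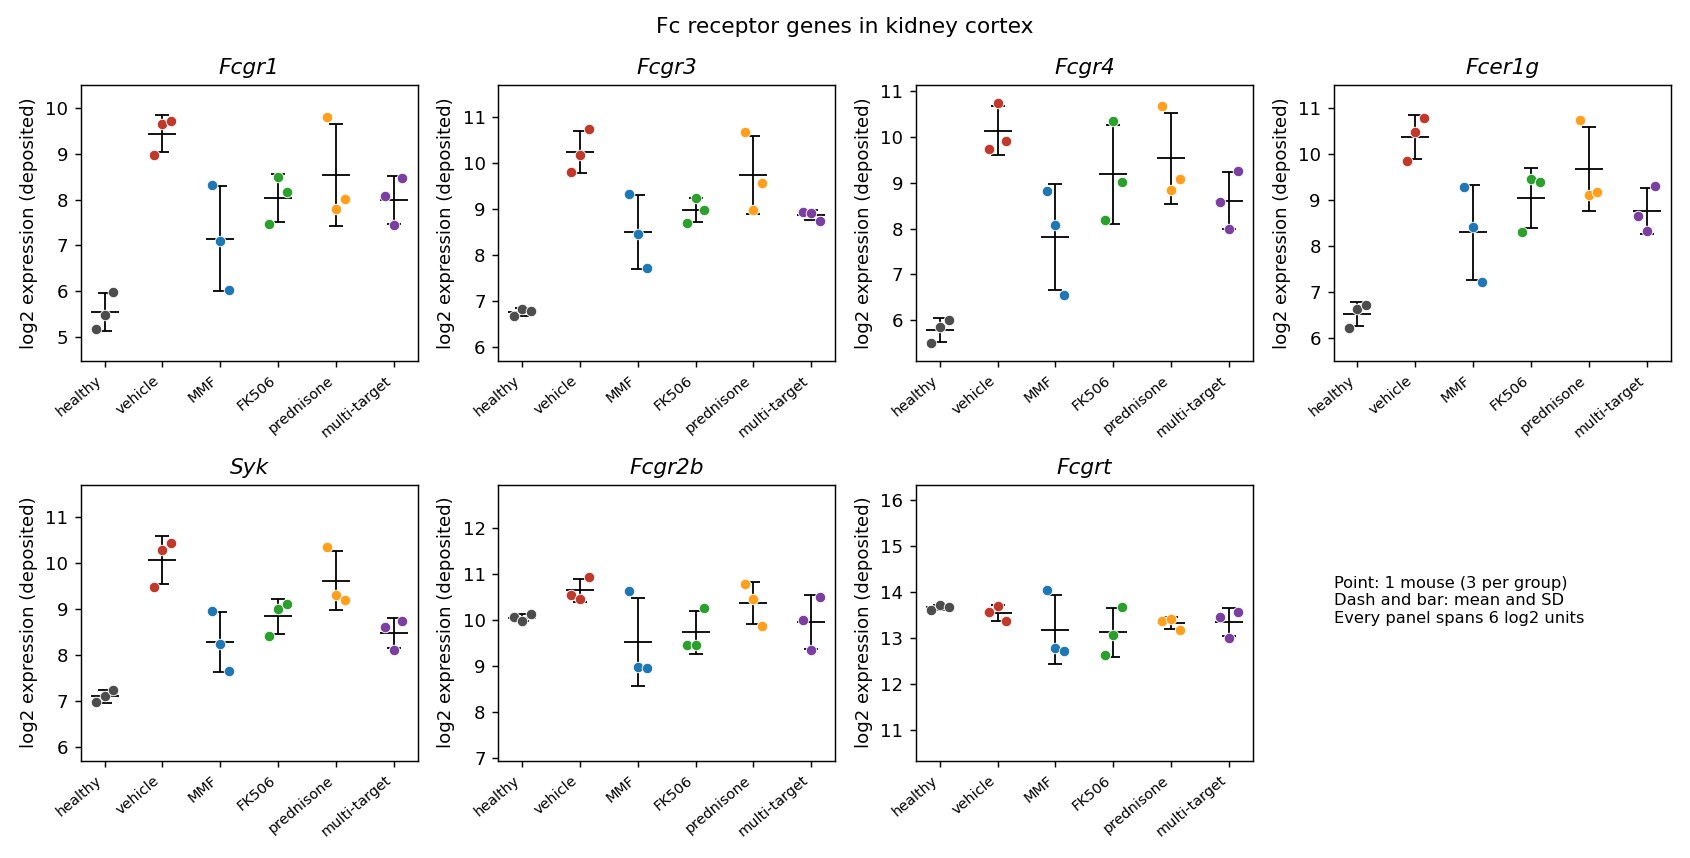
Deposited log2 expression of the 7 genes (y axis, every panel spanning the same number of log2 units) by group (x axis), with 1 point per mouse and the mean and SD of 3 mice. The first 5 genes are lowest in healthy mice and highest on average in vehicle mice, while the group means of Fcgr2b and Fcgrt lie within 1 log2 unit of the healthy mean.

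Levels can be compared between genes only per length, and the 5 genes whose values are whole reads were divided by annotated transcript length. Fcgrt was the highest in all 6 groups, at a mean of 12.85 log2 units per kilobase in healthy mice and 12.73 in vehicle mice. In healthy mice Fcer1g followed at 7.10 ± 0.26 (SD, n = 3), then Fcgr3 at 6.34 ± 0.09, Fcgr4 at 5.47 ± 0.26 and Fcgr1 at 4.18 ± 0.41. In vehicle mice Fcer1g was at 10.95 ± 0.48, with Fcgr3 at 9.82 ± 0.47 and Fcgr4 at 9.80 ± 0.53. Fcgr3 and Fcgr4 were thus separated by more than their SDs in healthy mice and not in vehicle mice, and Fcgr1 remained the lowest at 8.06 ± 0.41.

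The balance between activating and inhibitory genes was read as a log2 ratio within each library, which is free of library scale. The ratio of Fcgr1 to Fcgr2b was -4.88, -4.50 and -4.14 in the healthy mice, in ascending order, and -1.6, -1.23 and -0.82 in the vehicle mice. Ratios of all 4 numerators shifted towards the activating side in vehicle mice: by 3.29 for Fcgr1, 2.89 for Fcgr3, 3.74 for Fcgr4 and 3.26 for Fcer1g. No vehicle mouse overlapped a healthy mouse, and each exact two-sided permutation test gave p = 0.10, the smallest that 3 against 3 mice allow (adjusted p = 0.133 over the 8 ratio tests).

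In a comparison chosen after the data were seen, all 15 MRL/lpr mice were set against the 3 healthy mice. The Fcgr1 ratio ran from -2.93 to -0.82 in MRL/lpr mice and from -4.88 to -4.14 in healthy mice. For Fcgr3 the ranges were -1.77 to -0.11 and -3.39 to -3.14, for Fcgr4 -2.41 to 0.86 and -4.55 to -4.11, and for Fcer1g -1.75 to 0.04 and -3.84 to -3.35. The ranges did not overlap for any of the 4 ratios, in treated or in vehicle mice. Since these groups were joined after that separation had been seen, it is a description with no test.

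**Figure D2:**
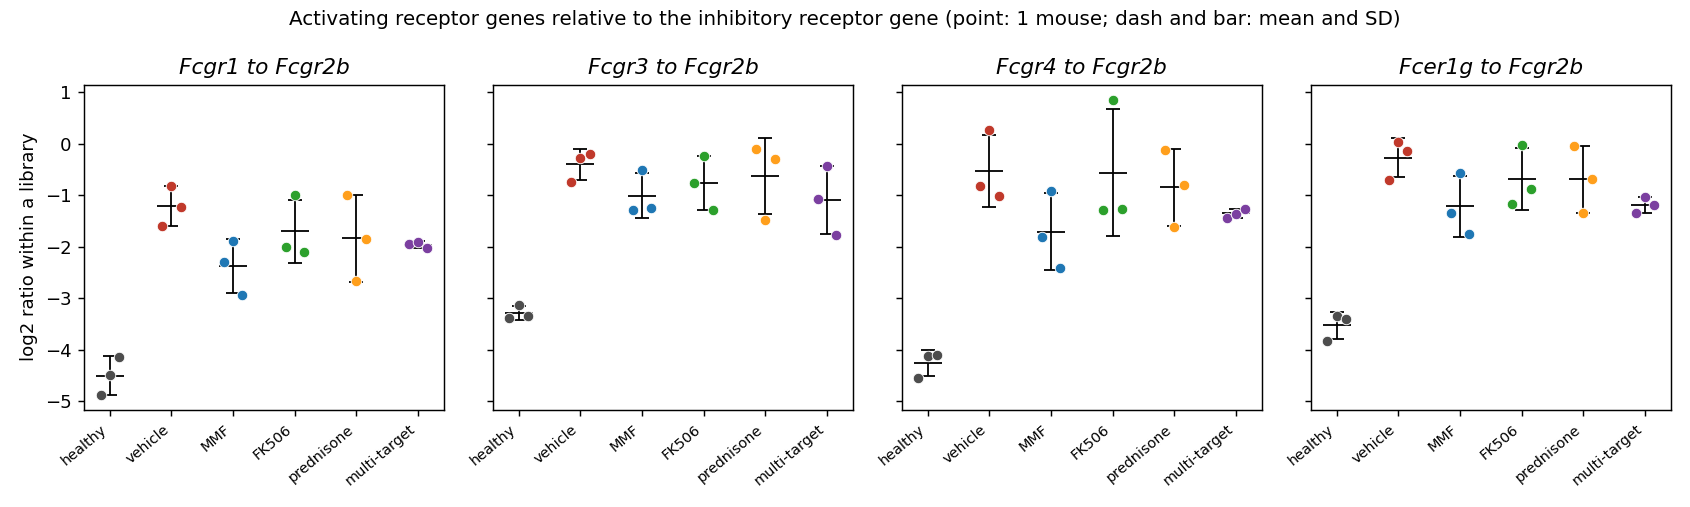
Log2 ratio of each activating-side gene to Fcgr2b within a library (y axis) by group (x axis), with 1 point per mouse and the mean and SD of 3 mice. Every MRL/lpr mouse, treated or not, lies above the 3 healthy mice in all 4 panels.

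Under MMF, Fcgr3 and Syk fell relative to vehicle, and the other activating-side genes had larger or similar differences with adjusted p just past the threshold. MMF mice 1, 14 and 27 had Fcgr3 at 9.34, 8.47 and 7.72, all below the lowest vehicle mouse, and the mean difference was -1.73 (SE 0.40, limma adjusted p = 0.0486). Syk was at 8.97, 8.24 and 7.65, a difference of -1.79 (SE 0.36, limma adjusted p = 0.0459). The 5 activating-side genes lay below vehicle with no overlap, as did 12.4% of all genes. Among all genes 1.58% were called in this comparison and 1.45% as lower. These 2 calls were fragile: none of the 7 genes was called without the libraries carrying other tissue, without vehicle mouse 17 or 36, without MMF mouse 14 or 27, with only the 2 groups in the fit, with quantile normalization or without the 25% of genes with the lowest mean. In those fits 0% of all genes were called, and 0.248% without the genes of lowest mean, so the loss is not one of these 7 genes alone.

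Fcgr1 was at 8.33, 7.09 and 6.03 in MMF mice 1, 14 and 27, a difference from vehicle of -2.28 (SE 0.56, limma adjusted p = 0.0523). Fcgr4 was at 8.82, 8.07 and 6.55, a difference of -2.31 (SE 0.62, limma adjusted p = 0.0573). Fcer1g was at 9.29, 8.41 and 7.22, a difference of -2.07 (SE 0.51, limma adjusted p = 0.0524). Mouse 1 was highest and mouse 27 lowest in all 5 activating-side genes, and the 3 animals spread over 2.29 log2 units for Fcgr1. Without MMF mouse 1 all 7 genes were called lower than vehicle, and 36.8% of all genes were called in either direction. Without vehicle mouse 7 there were 5 calls among the 7 and 12.9% among all genes.

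Fcgr2b also had a lower mean under MMF, with values of 10.63, 8.98 and 8.96 and a difference of -1.12 (SE 0.40, limma adjusted p = 0.0973). MMF mice 14 and 27 were about 1 log2 unit below the healthy mice, and mouse 1 was above them. Fcgrt followed the same split, at 14.05, 12.78 and 12.74, with a difference of -0.36 (SE 0.30, limma adjusted p = 0.425). In both genes MMF mouse 1 stood apart from its 2 group mates by more than 1 log2 unit.

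FK506, prednisone and multi-target therapy gave no calls against vehicle, for these 7 genes or for any other (0% of 15035 genes in each of the 3 comparisons by limma). At an unadjusted p under 0.05, 19.9% of all genes differed under FK506, 3.15% under prednisone and 15.6% under multi-target therapy, and 5, 0 and 5 of the 7 genes did so. The count of 0 therefore does not show that the levels were alike.

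FK506 mice 3, 12 and 24 had Fcgr1 at 7.46, 8.48 and 8.17, all below the vehicle mice, with a difference of -1.40 (95% interval -2.59 to -0.21, limma adjusted p = 0.2). Fcer1g differed by -1.33 (interval -2.42 to -0.23), Fcgr3 by -1.27 and Syk by -1.23, again with no overlap between the groups. Fcgr4 was the exception: its values of 8.19, 10.33 and 9.01 overlapped vehicle, and the high one was the FK506 mouse with adrenal transcripts, mouse 12. That library also had the highest mean of the 10 neutrophil markers, 7.85 against 4.25 to 6.6 in the other libraries, and the part of neutrophils in its Fcgr4 level was not tested. The Fcgr4 difference was -0.95 with all mice and -1.23 without the libraries carrying other tissue. Without them the differences were -1.52 for Fcgr1, -1.43 for Fcgr3, -1.47 for Fcer1g, -1.19 for Syk and -0.88 for Fcgr2b, none of them called. Fcgr2b was at 9.47, 9.47 and 10.27, below every vehicle mouse, with a difference of -0.91 (limma adjusted p = 0.225). Of all genes, 12.2% were lower under FK506 with no overlap, against 5 of these 7.

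Prednisone gave the smallest differences from vehicle in the 5 activating-side genes. Mouse 23 was at 9.80 for Fcgr1, 10.68 for Fcgr3, 10.66 for Fcgr4, 10.74 for Fcer1g and 10.36 for Syk, within or above the range of the vehicle mice. Mice 29 and 35 were at 7.79 and 8.01 for Fcgr1 and at 9.13 and 9.18 for Fcer1g, below it. The group differences were -0.90 for Fcgr1 (95% interval -2.09 to 0.29), -0.50 for Fcgr3, -0.60 for Fcgr4, -0.70 for Fcer1g and -0.45 for Syk. None of the 7 genes separated the groups, against 1.30% of all genes that were lower with no overlap.

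Multi-target mice 6, 18 and 39 had Fcer1g at 8.67, 8.33 and 9.32, a difference from vehicle of -1.61 (95% interval -2.71 to -0.52, limma adjusted p = 0.2). Syk was at 8.62, 8.12 and 8.73, a difference of -1.58 (interval -2.35 to -0.81, limma adjusted p = 0.163). Fcgr1, Fcgr3 and Fcgr4 differed by -1.43, -1.38 and -1.52. These 5 genes lay below vehicle with no overlap, as did 9.54% of all genes. Fcgr3 had its narrowest spread among MRL/lpr groups here, from 8.75 to 8.95.

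**Figure D3:**
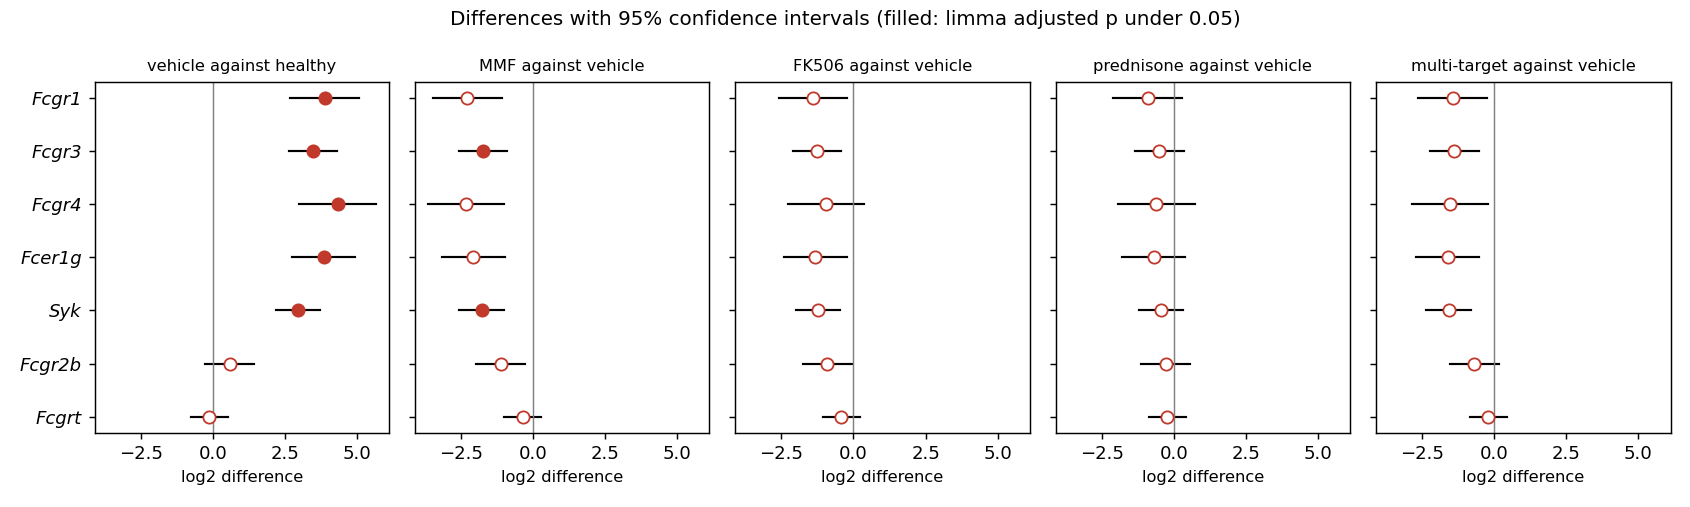
Log2 differences (x axis) of the 7 genes (y axis) in vehicle against healthy mice and in each treatment against vehicle, with limma's 95% confidence intervals and filled points for adjusted p under 0.05. The 5 activating-side genes are filled in the first panel, Fcgr3 and Syk under MMF, and none under the other treatments.

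Setting multi-target therapy against each single drug gave no call in any gene of the tables by limma (0% in each comparison, with 7.49%, 0.406% and 3.35% of genes at an unadjusted p under 0.05 against MMF, FK506 and prednisone). Against MMF, the Fcgr1 difference was 0.85 (95% interval -0.34 to 2.04) and the Syk difference 0.20 (interval -0.56 to 0.97). Against FK506, Fcgr1 differed by -0.037 (interval -1.23 to 1.16, and 0.19 without the libraries carrying other tissue) and Syk by -0.36 (interval -1.12 to 0.41). Against prednisone, Syk differed by -1.13 (interval -1.90 to -0.36) and Fcgr3 by -0.88 (interval -1.72 to -0.03). For those 2 genes no multi-target mouse overlapped a prednisone mouse, as for 8.42% of all genes, but the adjusted p for Syk was 0.993.

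Taking the 12 drug-treated mice one by one, 11 were below every vehicle mouse for Fcgr1, Fcgr3, Fcer1g and Syk, and 10 for Fcgr4. Of all genes, 6.83% had 10 or more of the 12 below every vehicle mouse. Prednisone mouse 23 was the exception in all 5 genes, joined by FK506 mouse 12 for Fcgr4. For Fcgr2b 8 of 12 were below every vehicle mouse, and for Fcgrt 6 of 12. The shares of all genes with such counts are not given here, so whether they are unusual cannot be read. Averaged over the 4 drug groups, the differences from vehicle were -1.50 for Fcgr1, -1.43 for Fcer1g, -1.35 for Fcgr4, -1.26 for Syk and -1.22 for Fcgr3. Their limma adjusted p ran from 0.0872 for Syk to 0.125 for Fcgr4, with 0% of genes called and 24.4% at an unadjusted p under 0.05. Without prednisone mouse 23, MMF mouse 1 or vehicle mouse 7 there were 4, 5 and 3 calls among the 7, where 5.95%, 12.2% and 9.58% of all genes were called.

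All 12 drug-treated mice were above every healthy mouse for Fcgr1, Fcgr3, Fcgr4, Fcer1g and Syk, as for 14.9% of all genes. The closest approach was MMF mouse 27 for Fcgr1, at 6.03 against 5.99 in the highest healthy mouse. Against healthy mice, 5 of the 7 genes were called higher under FK506, prednisone and multi-target therapy, where 7.27%, 16.7% and 6.98% of all genes were called. Under MMF 4 were called, with a background of 15.9%: Fcgr4 by 2.02, Fcer1g by 1.78, Fcgr3 by 1.75 and Syk by 1.18. Fcgr1 was at 1.6 with a limma adjusted p of 0.0615.

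These comparisons share the healthy mice, and some counts rest on single animals. Without the libraries carrying other tissue, 2 genes were called under FK506, with Fcgr3 at 2.08 (limma adjusted p = 0.0492). MMF against healthy then had 2 calls and multi-target against healthy 4. MMF against healthy had between 0 and 5 with 1 mouse left out, with 0 without healthy mouse 1 or MMF mouse 14 and 1 without healthy mouse 2 or 3. FK506 against healthy had 2 without healthy mouse 1 or FK506 mouse 12, and 3 without healthy mouse 2. Multi-target against healthy had 1 without healthy mouse 1, healthy mouse 2 or multi-target mouse 6 and 3 without healthy mouse 3. The prednisone count stayed at 5 throughout. In the fits with 1 mouse left out that gave 0 or 1 call, 3.24% to 4.42% of all genes were called under MMF and 1.48% to 2.14% under multi-target therapy. In the FK506 fits with 2 or 3 calls the share was 1.42% to 1.90%.

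For Fcgr2b the treated mice lay on both sides of the healthy range, and for Fcgrt most lay below it. For Fcgr2b 5 of 12 drug-treated mice were above every healthy mouse and 6 below every one. For Fcgrt 1 was above and 10 were below, and the group differences from healthy ran from -0.54 under FK506 to -0.32 under multi-target therapy. Under prednisone and multi-target therapy Fcgrt was lower than healthy with no overlap, as were 16.2% and 16.5% of all genes. The shares of all genes with such counts per mouse are not given here. Neither gene was called against healthy in any treated group.

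By group mean, the 5 activating-side genes had one order: healthy, MMF, multi-target, FK506, prednisone and vehicle, from low to high. Among neighbouring treated groups, the gap between FK506 and prednisone exceeded both SDs in Syk, at 8.85 ± 0.38 and 9.62 ± 0.64. The highest FK506 mouse was at 9.12, close to the lowest prednisone mouse at 9.19. That difference was not tested, and the share of all genes without overlap in that pair is not given here. In the other 4 genes the gaps between neighbours did not exceed both SDs. For Fcer1g the means and SDs were 8.31 ± 1.04 for MMF, 8.77 ± 0.50 for multi-target, 9.05 ± 0.65 for FK506 and 9.68 ± 0.92 for prednisone (n = 3 each). Fcgr2b was ordered MMF, FK506, multi-target, healthy, prednisone and vehicle, and Fcgrt FK506, MMF, prednisone, multi-target, vehicle and healthy. The shared order describes the same 18 libraries and is not independent between genes.

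The ratios to Fcgr2b were lower on average in the drug-treated mice than in vehicle mice, but no test passed after adjustment. For Fcgr1 the mean ratio was -1.97 in 12 drug-treated mice and -1.22 in 3 vehicle mice, a difference of -0.75 (exact permutation p = 0.0352, adjusted p = 0.133). Fcer1g differed by -0.68 (exact permutation p = 0.0791, adjusted p = 0.133), Fcgr4 by -0.60 and Fcgr3 by -0.47, with ranges that overlapped vehicle. The smallest p this design can give is 0.0044.

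Macrophage markers moved with the activating-side genes. Of 14 measured markers, 13 rose in vehicle mice, with a median difference of 3.16 against 0.09 over all genes. They included Cd68 and Emr1, a surface receptor gene of mouse macrophages, and Csf1r was at 0.73 (limma adjusted p = 0.0619). The summed level of the 14 was 12.63 to 12.85 log2 units in healthy mice, 15.14 to 16.28 in vehicle, 13.14 to 14.84 under MMF, 14 to 14.60 under FK506, 14.45 to 16.07 under prednisone and 13.95 to 14.44 under multi-target therapy. Of the markers, 4 fell under MMF and none under the other drugs. Without the libraries carrying other tissue 12 of the 14 rose in vehicle mice and none was called under MMF, where the median was -1.86 with all mice and -1.90 without those libraries. The part of macrophage number in the receptor differences was not tested.

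Across the 15 MRL/lpr libraries, Fcer1g tracked the mean of the macrophage markers with a Pearson r of 0.97, as did Syk (0.97), Fcgr3 (0.97) and Fcgr1 (0.96). Fcgr4 and Fcgr2b had an r of 0.86 and Fcgrt 0.57. These are descriptions over libraries that share depth, tissue makeup and treatment. Relative to the marker mean, Syk was at -1.14 in healthy and -1.22 in vehicle mice, nearly level. Fcgr4 went from -2.46 to -1.17, and Fcgr2b from 1.81 to -0.64. In healthy mice Fcgr2b lay above the macrophage marker mean, where every activating-side gene lay below it. These values are not divided by transcript length, so only their changes between groups can be read, not the order of the genes.

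**Figure D4:**
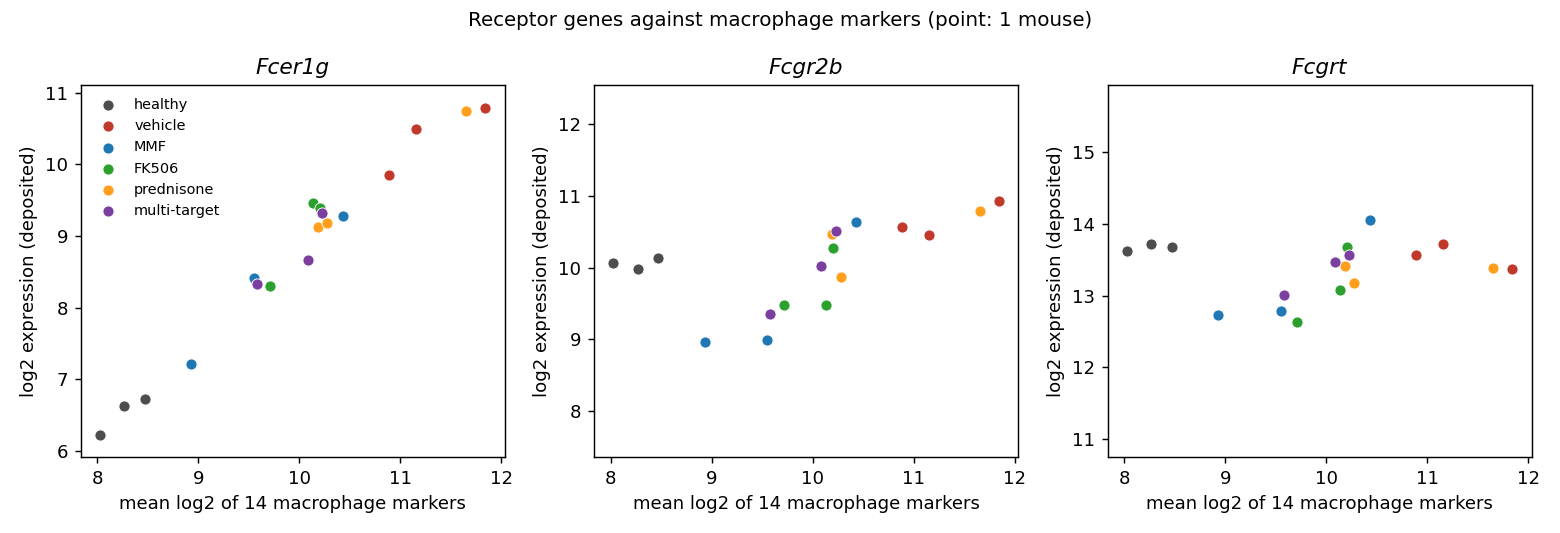
Log2 expression of Fcer1g, Fcgr2b and Fcgrt (y axes) against the mean log2 value of 14 macrophage markers (x axis), with 1 point per mouse coloured by group. Fcer1g follows the markers through healthy and MRL/lpr mice, while the healthy mice lie above the trend of the MRL/lpr mice for Fcgr2b and Fcgrt.

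Lists of other cells that can carry these receptors were called in part. With all mice, 15.7% of all genes were called higher in vehicle than in healthy mice and 6.76% lower. The counts below are read against those shares. Of 10 measured neutrophil markers 2 rose in vehicle mice, near the share of all genes (4 without the libraries carrying other tissue). The 2 were S100a8, by 4.75 from a healthy mean of 1.81, and Csf3r, by 1.70. Summed neutrophil levels were 9.15 to 9.44 in healthy and 10.11 to 10.72 in vehicle mice. All 4 measured genes of the natural killer list rose (2 without the libraries carrying other tissue), with summed levels of 7.78 to 7.86 and 9.02 to 10.22. They were Klrk1, Gzmb, Prf1 and Nkg7, while Ncr1, Klrb1c, Klrd1 and Eomes of that list were not measured. A rise of natural killer cells apart from T cells was therefore not tested. Of 7 B cell markers 3 rose (2 without those libraries), with sums of 9.21 to 9.33 and 9.93 to 10.45. None of the 2 measured mast cell markers or the 10 endothelial markers was called, and endothelial sums were 14.43 to 14.47 and 14.28 to 14.68. Among lists of cells that mostly lack the activating receptors, 8 of 9 T cell, 3 of 8 podocyte and 2 of 3 lymphoid stroma genes rose. In these lists 3 of 10 proximal tubule genes fell, and none of 7 adipocyte or 7 adrenal genes was called. Without the libraries carrying other tissue, 6 T cell, 0 podocyte and 2 lymphoid stroma genes rose, and 3 proximal tubule genes fell. Of 6 dendritic cell genes 4 rose (1 without the libraries carrying other tissue). The part of these cells in the receptor levels was not tested.

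Within the MRL/lpr mice the 5 activating-side genes varied together, with 10 pairwise Pearson r between 0.855 and 0.980 over 15 libraries. After each group's mean was removed, they were between 0.745 and 0.978. Fcgr2b had an r of 0.82 with Fcgrt, and with the activating-side genes from 0.69 for Fcgr4 to 0.83 for Fcer1g. For Fcgrt the r with those genes ran from 0.48 for Fcgr3 to 0.62 for Fcgr1. By the largest r over the same libraries, the genes most like Fcer1g included Ly86 (0.993) and Hcls1 (0.989), and those most like Fcgr1 included C1qb (0.985) and Ly86 (0.981). Fcgr3 was closest to Ctss (0.990), Arrb2 and Pla2g15, Syk to Myo1g (0.985), Itgb2 and Spi1, and Fcgr4 to Clec4a1 (0.967), Clec4a3 and Klra2. Fcgr2b had Ttl (0.985), Anxa5 and Zmynd15, and Fcgrt had Angptl7 (0.955), Hist1h2bc and Ang. C1qb, Ctss and Spi1 are also in the macrophage list.

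The Syk pathway list held kinases, adaptors and lipid enzymes downstream of the ITAM. Of its 25 genes 19 rose in vehicle mice and none fell, with a median difference of 1.68. Pik3cd, the leukocyte catalytic subunit of phosphoinositide 3-kinase, rose by 1.98 (SE 0.24, limma adjusted p = 7.79e-05), and Pik3r5, a regulatory subunit of its gamma class, by 2.16. Nckap1l, of the actin-regulating WAVE complex in blood cells, rose by 2.23, and the adaptor gene Sh3bp2 by 1.06.

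Under MMF 7 of the 25 fell relative to vehicle, with a median of -1.01 against -0.05 over all genes. They were Pik3r5 (-1.39), Pik3cd (-1.07) and Nckap1l (-1.30), and, named after their values were seen, Fgr, Btk, Vav1 and Pik3ap1. Sh3bp2 was at -1.01 (limma adjusted p = 0.0523). None of the 25 was called under MMF without the libraries carrying other tissue or with quantile normalization, where the medians were -1.01 and -0.86. The same holds for every gene named below as fallen under MMF, since these fits, and the fit of only the 2 groups, called 0% of all genes.

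Of 11 measured receptors and adaptors that also signal through ITAM chains, 9 rose in vehicle mice, with a median of 2.26. Trem2, a lipid receptor of macrophages, rose by 4.32, Clec4e, the gene of the glycolipid receptor Mincle, by 2.62, and Clec4n, the gene of Dectin-2, by 2.89. Pira2 rose by 2.21, while Pira6, named after its values were seen, was at -0.95 (limma adjusted p = 0.0563). As members of a family of near-identical genes, their counts are uncertain. With quantile normalization, and without the libraries carrying other tissue, 1 of the 11 genes was called lower in vehicle mice. Clec4e and Pira2 fell under MMF, by 1.81 and 1.15 on the log2 scale, with no call in the 3 MMF fits described above. Trem2 was at -1.74 (limma adjusted p = 0.0805) and Clec4n at -1.97 (0.0646).

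Of 14 other measured genes of the inhibitory side, among them ITIM receptors, phosphatases and adaptors, 9 rose in vehicle mice, with a median of 1.59. Lilrb4, an ITIM receptor of myeloid cells, rose by 3.16 (SE 0.29), the collagen receptor gene Lair1 by 3.45, the adaptor gene Dok3 by 2.50 and the ITIM receptor gene Cd300a by 2.37. Under MMF Lilrb4, Dok3 and Cd300a fell, by 1.55, 1.56 and 1.44 on the log2 scale, with no call in the same 3 fits, and Lair1 was at -1.64 (limma adjusted p = 0.0510). Inpp5d, the gene of the phosphatase SHIP1 that the Fcgr2b ITIM recruits, was named after its values were seen: it was 1.78 higher in vehicle mice (SE 0.24).

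Other receptors and carriers of immunoglobulin moved in both directions. Of 8 measured, 4 rose in vehicle mice and 1 fell. Pigr, the carrier of IgA and IgM across epithelia, rose by 3.36 (SE 0.42), and Trim21, a cytosolic antibody receptor, by 1.56 (SE 0.19). Fcrls rose by 2.0, and Fcamr, a receptor for IgA and IgM, fell by 1.62 (both named after their values were seen). None was called under MMF; Trim21 was at -0.70, B2m at -0.92 and Pigr at 0.25.

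Genes of antibody-secreting cells were measured through 5 symbols, of which 4 rose. Igj, the gene of the joining chain, rose by 4.08 (SE 0.78), Mzb1 by 2.79, the plasma cell surface gene Sdc1 by 1.32 and the secretory regulator gene Xbp1 by 0.79, while Prdm1 was at 0.69 (limma adjusted p = 0.0512). Sdc1 and Xbp1 are also expressed by epithelium. Under MMF none was called, with Igj at 0.11, Mzb1 at -0.56, Sdc1 at -0.73, Prdm1 at -0.81 and Xbp1 at 0.01. None of these 5 lists had a call under FK506, prednisone or multi-target therapy.

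**Figure D5:**
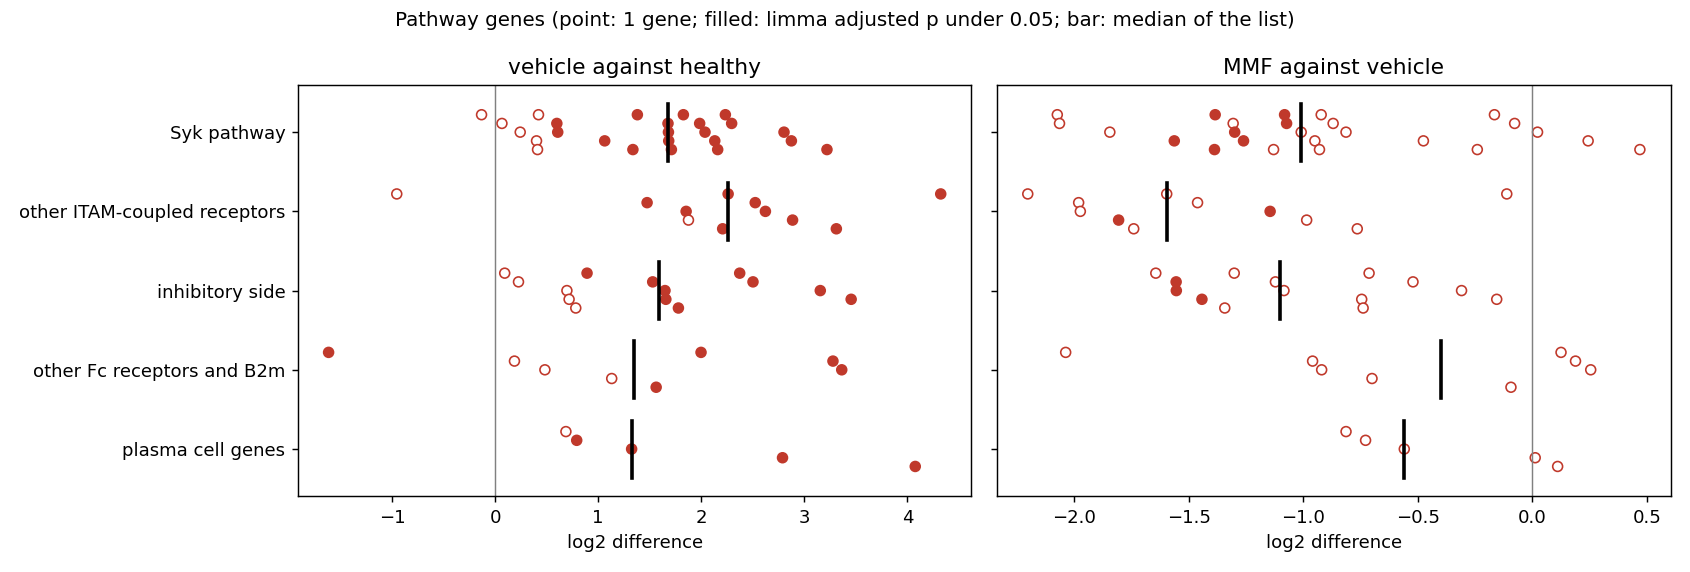
Log2 differences (x axes) of the genes in 5 pathway lists (y axis) in vehicle against healthy mice (left) and MMF against vehicle (right), with 1 point per gene, filled for limma adjusted p under 0.05, and a bar at each list's median. Filled points lie to the right in the left panel except Fcamr, and those in the right panel lie to the left.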

How the data were processed

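Total RNA from flash-frozen kidney was made into TruSeq libraries, per the labels' protocols. The authors deposited 1 table of log2 expression values per library; the submitters' processing notes name mm10 and limma without a version, and the sources used here name no aligner, counter or gene models. Raised to the power of 2 and divided by a constant per library, 75.0% to 75.5% of genes gave whole reads within 0.001 reads. A further set, which includes Fcgr2b and Syk, gave whole squares, the pattern of a mean over 2 rows of counts. Because the recovery was not whole for nearly all genes, no count test was run.

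The deposited log2 values of all 18 libraries were fitted as 6 group means with limma 3.58.1 (R 4.3.3), with a mean-dependent prior variance, 12 residual degrees of freedom, no filter and no pseudocount, and 13 comparisons were made, each adjusted over 15035 genes at 0.05. Ratios of genes were tested with exact two-sided permutation tests (scipy 1.17.1). The fit was tested on simulated data. The limma p-values set each difference against the spread of mice within the 6 groups, moderated over all genes. The permutation p-values rest on relabelling the mice. Gene models are from GENCODE M21 and promoters from RefSeq (GRCm38.p6); all 7 genes matched both.

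The members and gene lists were chosen with earlier results of these data known. Genes named from the 5 pathway lists are the 3 with the smallest p in vehicle against healthy and the 2 with the smallest p in the drug mean against vehicle, unless stated otherwise. Alternatives were another scaling (quantile), array weights, a filter on low genes, a constant prior, fits of only the compared groups, and libraries left out. For each member, the 3 genes with the highest Pearson r over the MRL/lpr libraries are named, except 1 gene that is not reported here.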

Additional observations from a re-analysis of the deposited data

How the results depend on the processing

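Of 1142 recomputed differences of the 7 genes, 989 kept their direction and side of the threshold, 69 lost the call, 62 gained it and 22 reversed. All 100 recomputed ratios to Fcgr2b kept theirs. Of 165 recomputed counts of genes called, 130 stayed within 1.5 times. The 5 calls in vehicle against healthy mice and the 5 in prednisone against healthy held with any 1 mouse left out. The 2 calls in MMF against vehicle became 0 with only the compared groups in the fit, 0 with quantile normalization, 0 without the 25% of genes with the lowest mean (which drops Fcgr1), 0 without both libraries carrying other tissue, 1 with a constant prior and 7 with array weights, which called 44.9% of all genes there. Array weights also gave 4 calls in FK506 against vehicle (15.5% of all genes), 5 in multi-target against vehicle (18.5%), 7 for the drug mean against vehicle (19.3%), 7 in multi-target against MMF (46.1%), 3 in multi-target against FK506 (13.6%) and 7 in MMF against healthy (59.1%); that weight fit stopped before full convergence. MMF against healthy had 1 call with only its groups in the fit and 2 without both libraries carrying other tissue, where FK506 against healthy also had 2.

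With 1 mouse left out the counts ran from 0 to 7 in MMF against vehicle, 0 to 5 for the drug mean, 0 to 5 in MMF against healthy, 2 to 5 in FK506 against healthy and 1 to 4 in multi-target against healthy. Each reversed difference was uncalled with all mice and in the setting that reversed it. Quantile normalization, which moved the median of all genes in vehicle against healthy from 0.09 to -0.07, turned Fcgrt there to 0.0027, and to -0.014 in multi-target against prednisone. Without both libraries carrying other tissue, multi-target against FK506 was 0.19 for Fcgr1, 0.021 for Fcgr3 and 0.010 for Fcgr4. With 1 mouse left out, that comparison ran from -0.33 to 0.24 for Fcgr1, -0.25 to 0.021 for Fcgr3, -1.06 to 0.010 for Fcgr4, -0.053 to 0.53 for Fcgr2b and -0.025 to 0.50 for Fcgrt. Multi-target against MMF ran from -0.035 to 0.77 for Fcgr3, -0.080 to 0.95 for Fcer1g, -0.11 to 0.54 for Syk and -0.064 to 0.60 for Fcgrt. Multi-target against prednisone ran from -0.91 to 0.10 for Fcgr1 and -0.084 to 0.19 for Fcgrt, and multi-target against healthy from -0.37 to 0.20 for Fcgr2b. The cause of these changes was not tested. No paired analysis was made, because the labels give no pairing of mice between groups.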
